A study of Homo sapiens with 8 samples.

Results

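The peaks described here lie in exons of noncoding genes: long noncoding RNAs (lncRNAs), pseudogenes and small RNAs. IGF2BP1 binding was measured by eCLIP, in which UV light fixes a protein to the RNA it touches, the protein is pulled down with an antibody and the attached RNA is sequenced beside a size-matched input (SMInput). The cells were H1299, an established human non-small cell lung carcinoma line labelled WT, and both groups were handled alike except for 24 h with either 0.01% DMSO, the solvent control, or 1.5 µM AVJ16, a small molecule inhibitor of IGF2BP1. Cells were irradiated at 254 nm with 400 mJ/cm2, and each treatment had 2 immunoprecipitated (IP) and 2 SMInput libraries, 8 in all. Samples were prepared in 2 batches grown from a single thaw, and the labels do not tie a library to a batch, so that results could not be given within a batch. The deposited lists hold 1 peak set per treatment, with both replicates combined, so that no replicate error and no test between treatments could be had. They do not measure expression, and the cell line label could not be checked with marker genes.

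A peak was a member when it overlapped, on its own strand, an exon of a GENCODE release 44 gene that is not protein-coding, and no exon of a protein-coding gene. This held for 325 of 22311 peaks with DMSO (1.46%) and 364 of 22123 with AVJ16 (1.65%), which is 689 of 44434 peaks. LINC00632, which alone held 66 and 55 peaks, was left out. Of the members, 52 with DMSO and 85 with AVJ16 touched the member before them. With touching peaks joined into sites, members numbered 273 and 278, nearly the same in both lists. Counts by class below are of peaks, not of joined sites. Most members lay wholly within an exon, 309 with DMSO and 349 with AVJ16. At the edge of the rule, 4 DMSO and 11 AVJ16 members overlapped an exon by at most 5 nt, with log2 fold enrichments of 3.04 to 3.59 and 3.01 to 4.77 (the AVJ16 ones being no longer than that), and no other peak lay within 5 nt of such an exon without touching it or a coding exon. Each peak has a log2 fold enrichment of IP over SMInput, at least 3 in both lists, and a −log10 p with an upper limit of 400.

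IGF2BP1 is a cytoplasmic RNA-binding protein with RRM and KH domains, best known for binding and stabilizing mRNAs, and highly expressed in many tumours. Processed pseudogenes are retrocopies of spliced mRNAs that were written back into the genome, so their sequence lacks the introns of the parent gene. C/D box snoRNAs guide the methylation of other RNAs, are cut from introns of host genes, and carry a C box near the 5′ end and a D box (CUGA) near the 3′ end. Y RNAs are short cytoplasmic RNAs with many dispersed copies in the genome.

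Sequences are shown first for the pseudogene peaks, because most of them run across a point where 2 exons of the parent mRNA were joined. Capitals begin at the first base after that junction, and all coordinates are GRCh38. They are RPL39P3 at chr6:73373125-73373173 (minus strand), VDAC2P5 at chr2:65205439-65205476 (plus), UBE2D3P1 at chr20:5292612-5292663 (minus), RTRAFP1 at chr2:111940424-111940496 (minus) and SCDP1 at chr17:20785065-20785101 (plus). The first 4 are AVJ16 peaks and SCDP1 is a DMSO peak.
RPL39P3: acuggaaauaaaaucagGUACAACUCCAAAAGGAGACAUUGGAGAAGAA
VDAC2P5: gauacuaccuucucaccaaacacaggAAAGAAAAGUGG
UBE2D3P1: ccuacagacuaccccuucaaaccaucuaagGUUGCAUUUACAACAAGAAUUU
RTRAFP1: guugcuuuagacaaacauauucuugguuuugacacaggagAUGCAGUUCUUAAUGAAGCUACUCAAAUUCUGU
SCDP1: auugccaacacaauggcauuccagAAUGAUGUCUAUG

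For the small RNAs, capitals mark the bases under a peak of either list, which shows how much of each short RNA was bound. SNORD1A (chr17:76561634-76561705, plus), SNORD101 (chr6:132815307-132815379, plus) and SNORD90 (chr9:122880213-122880323, minus) carried the most enriched peaks of the snoRNAs outside GAS5. SNORD77 (chr1:173866301-173866370, minus) and SNORD75 (chr1:173866879-173866938, minus) lie inside GAS5 and are taken from RefSeq.
SNORD1A: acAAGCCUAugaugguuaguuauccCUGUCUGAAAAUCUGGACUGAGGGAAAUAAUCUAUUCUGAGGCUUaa
SNORD101: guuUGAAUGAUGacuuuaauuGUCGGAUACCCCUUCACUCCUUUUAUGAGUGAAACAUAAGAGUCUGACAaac
SNORD90: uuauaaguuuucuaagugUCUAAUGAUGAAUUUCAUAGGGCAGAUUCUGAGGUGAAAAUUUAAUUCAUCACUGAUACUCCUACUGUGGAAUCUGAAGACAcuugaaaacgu
SNORD77: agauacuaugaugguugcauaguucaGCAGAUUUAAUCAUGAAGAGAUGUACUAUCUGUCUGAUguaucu
SNORD75: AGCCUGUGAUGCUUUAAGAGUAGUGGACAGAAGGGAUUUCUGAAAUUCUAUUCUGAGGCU

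For the miRNAs bound with AVJ16, the mature RefSeq sequences (GRCh38.p14) are shown with the seed, bases 2 to 8, in capitals.
hsa-miR-27a-3p: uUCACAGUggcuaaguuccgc
hsa-miR-222-3p: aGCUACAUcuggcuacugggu

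For the lncRNAs, the most enriched DMSO peaks are shown for SNHG16 (chr17:76563429-76563474, plus) and FGD5-AS1 (chr3:14943653-14943760, minus). Capitals mark CAUC, once, and CAUA, short motifs of the kind described for IGF2BP proteins, and the SNHG16 peak held none of those searched.
SNHG16: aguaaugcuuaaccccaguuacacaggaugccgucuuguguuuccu
FGD5-AS1: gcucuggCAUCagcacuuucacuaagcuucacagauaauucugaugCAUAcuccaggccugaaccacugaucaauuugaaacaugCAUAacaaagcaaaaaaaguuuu

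Pseudogenes and lncRNAs held most of the peaks. Pseudogenes held 146 of the 325 DMSO members (44.9%, 95% Wilson interval 39.6 to 50.4) in 101 genes and 177 of the 364 AVJ16 members (48.6%, 43.5 to 53.7) in 116 genes. LncRNAs held 130 peaks in 56 genes (40.0%, 34.8 to 45.4) and 121 in 40 (33.2%, 28.6 to 38.2). The order of these classes in the DMSO list rested on how peaks touching several classes were assigned: with lncRNA taken first, lncRNAs held 143 DMSO peaks and pseudogenes 138, while with AVJ16 they held 143 and 168. Small RNAs held 36 peaks in 20 genes with DMSO and 57 in 29 genes with AVJ16, of which 27 and 43 lay in snoRNAs. The remaining 13 and 9 peaks lay in genes that GENCODE leaves as TEC, a label for loci still awaiting experiments. These intervals cover counting error only, and reads amplified by PCR are not independent molecules.

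**Figure D1:**
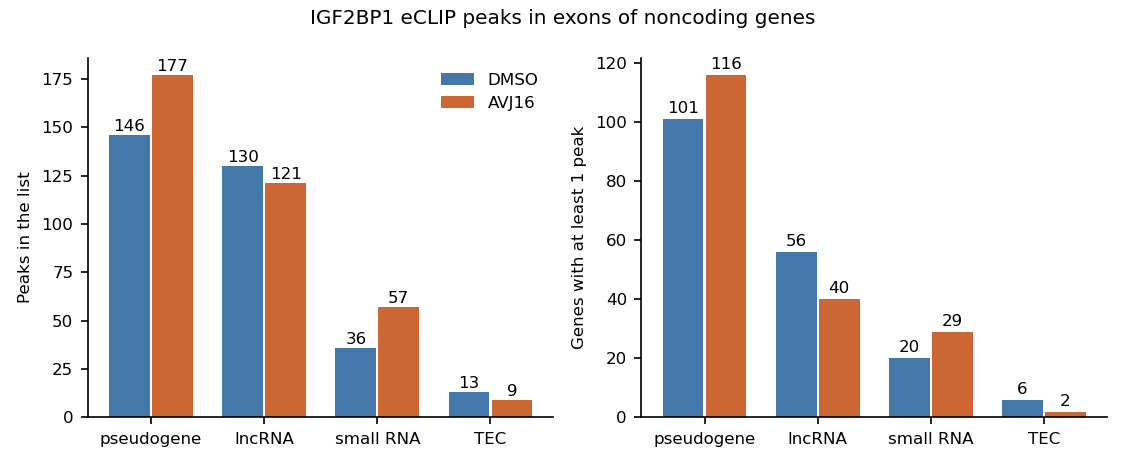
Number of peaks (left) and of genes with at least 1 peak (right) in each class of noncoding gene, for the DMSO and the AVJ16 list. Pseudogenes held 146 and 177 peaks, lncRNAs 130 and 121 and small RNAs 36 and 57 in the class order used, with touching peaks counted separately.

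Members were about as enriched as the rest of the lists. The median enrichment on the log2 scale was 3.56 (DMSO) and 3.61 (AVJ16), against 3.63 and 3.61 over all peaks. The highest value was at PABPC1P4 in both lists, 6.02 and 6.70. Small RNA peaks were short, with a median of 19 nt and 17 nt against 60 nt and 50 nt for all members, and 25.0% and 33.3% of them were at the upper limit of −log10 p, against 3.03% and 3.61% of all peaks. Across the classes, 253 genes had a member, 183 with DMSO and 187 with AVJ16. Both lists shared 117 of them, 63.9% of the DMSO genes. Of the 66 genes seen with DMSO alone 60 had a single peak, as did 57 of the 70 seen with AVJ16 alone. The same shares over all bound genes were not computed under this rule, so these gene counts have no like background beside them. The paper, with its own gene assignment, reports a larger share of all its bound genes as still bound under AVJ16.

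A partner, meaning an overlapping peak in the other list, was found for 202 DMSO members (62.2%, 56.8 to 67.3) and 223 AVJ16 members (61.3%, 56.2 to 66.1). The background was 66.2% of all DMSO peaks and 70.8% of all AVJ16 peaks. By class, lncRNA peaks had a partner in 53.8% (45.3 to 62.2) with DMSO and 66.9% (58.2 to 74.7) with AVJ16. For pseudogene peaks it was 67.1% (59.1 to 74.2) and 60.5% (53.1 to 67.4). Small RNA peaks had one in 29 of 36 cases (80.6%, 65.0 to 90.2) and 30 of 57 (52.6%, 39.9 to 65.0). In each of these classes the intervals of the lists overlapped, for small RNA peaks only just. Among members enriched by 4 or more on the log2 scale, 75 of 84 DMSO peaks (89.3%) and 83 of 96 AVJ16 peaks (86.5%) had a partner, beside 86.6% and 87.8% of all peaks that high.

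Subtracting the DMSO from the AVJ16 enrichment at the 202 shared peaks gave a median of 0.04 on the log2 scale, with a range of -1.21 to 2.05. A difference was counted as lower or higher beyond 0.5 in size. AVJ16 was lower at 21 peaks (10.4%, 6.90 to 15.4) and higher at 31 (15.3%, 11.03 to 21.0), beside 20.1% lower and 12.6% higher over all 14759 shared peaks, whose median was -0.06. The classes differed in these counts. Pseudogene peaks were lower at 10 of 98 (10.2%, 5.64 to 17.8) and higher at 24 (24.5%, 17.0 to 33.9), while lncRNA peaks were lower at 8 of 70 and higher at 3 (4.29%, 1.47 to 11.9). Small RNA peaks were lower at 2 of 29 and higher at 3. The share of higher pseudogene peaks was above that of all peaks, and the share of lower ones below it, while the pseudogene median was 0.03. These 98 peaks came from 65 genes and are not independent, so their intervals may be too narrow. Pseudogenes were also 1 of several classes compared. Replicate error is unknown for both shares.

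**Figure D2:**
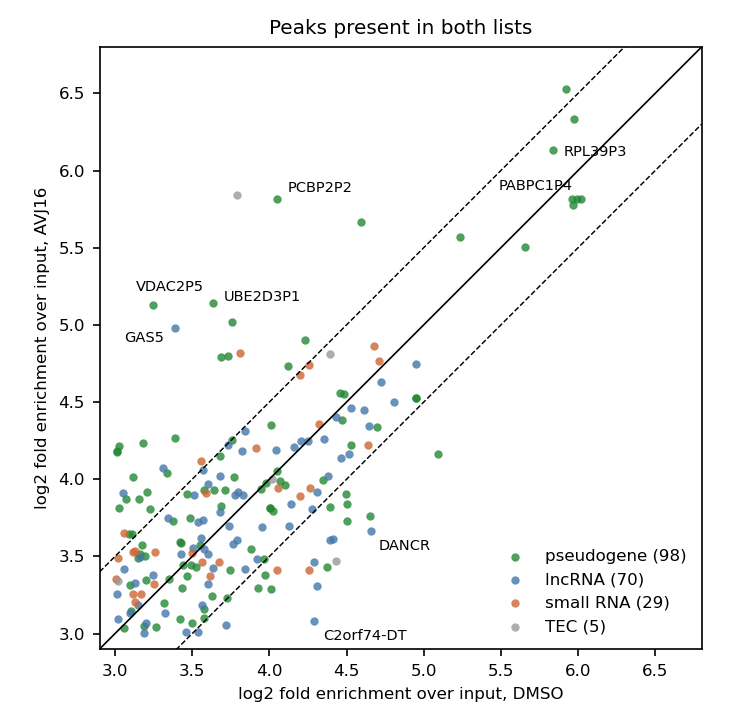
Log2 fold enrichment over input with DMSO (horizontal axis) and AVJ16 (vertical axis) at the 202 members with a partner, 1 point per DMSO peak, coloured by class with the number of peaks in brackets. The solid line marks equal values and the dashed lines a difference of 0.5. Pseudogene points lie above the upper dashed line 24 times and below the lower one 10 times.

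Of the pseudogene members, 140 DMSO and 171 AVJ16 peaks lay in processed pseudogenes, transcribed ones included. The sequences of all pseudogene peaks of at least 20 nt were searched in the spliced transcripts of protein-coding genes. A match of at least 90% identity over at least 80% of the peak was found for 134 of 138 DMSO peaks (97.1%, 92.8 to 98.9), from 85 parent genes, and for 156 of 160 AVJ16 peaks (97.5%, 93.7 to 99.0), from 92. By contrast, lncRNA peaks matched a coding transcript 3 times of 123 and 5 of 108. The whole peak was identical to the parent mRNA in 63 (45.7%) and 73 (45.6%) cases, so that for these peaks the bases alone do not separate the copy from its parent.

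Most matched peaks crossed an exon junction of the parent mRNA. It was so for 114 of 134 DMSO peaks (85.1%, 78.1 to 90.1) and 127 of 156 AVJ16 peaks (81.4%, 74.6 to 86.7). Over all windows of the same lengths on the same transcripts the share was 21.5% and 20.7%. Among peaks identical to the parent, 51 of 63 and 56 of 73 did so. The junction lay in the central part of the peak, between 33.3% and 66.7% of its length, in 58 of 114 and 61 of 127 cases, with a median position of 54.9% and 46.2% of its length from the 5′ end. What part the mapping of reads across junctions has in this share was not tested.

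**Figure D3:**
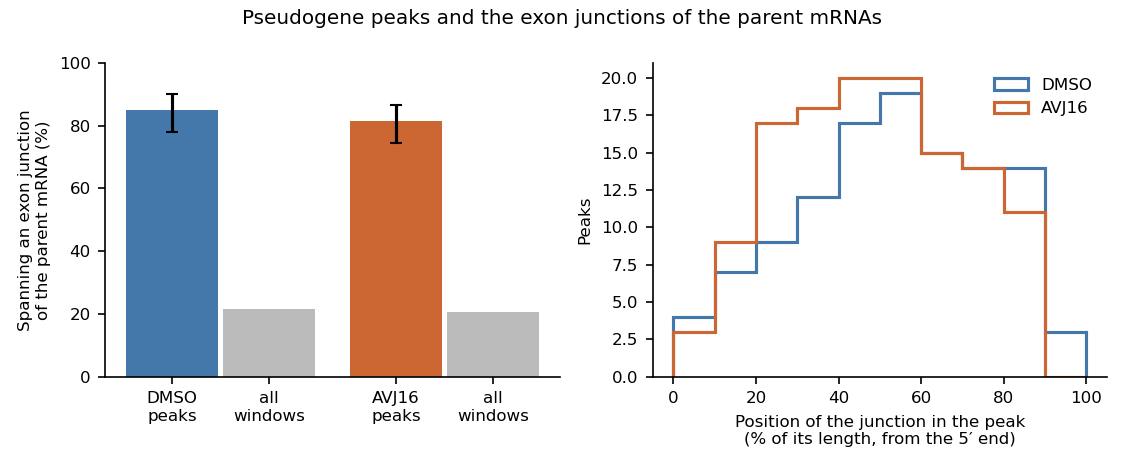
Left, percent of matched pseudogene peaks that span an exon junction of the parent mRNA (coloured bars, with 95% Wilson intervals) beside all windows of the same lengths on the same transcripts (grey). Right, number of these peaks by the position of the junction within the peak, in percent of its length. The peaks spanned a junction in 85.1% (DMSO) and 81.4% (AVJ16), against 21.5% and 20.7% of windows.

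The parent gene held a peak of its own somewhere, introns included, for 114 DMSO (85.1%) and 129 AVJ16 (82.7%) matched peaks. The same share for other coding genes was not computed. At the matching stretch itself the parent gene held a peak for 47 (35.1%, 27.5 to 43.5) and 51 (32.7%, 25.8 to 40.4). Where both were bound, the pseudogene was the more enriched in 27 of 47 and 30 of 51 cases, with a median difference of 0.14 and 0.15. Ribosomal protein genes were the parents of 38 DMSO peaks (28.4%, 19 parents) and 49 AVJ16 peaks (31.4%, 24 parents), and translation initiation factor genes of 11 and 12. The shares of these families among all annotated pseudogenes were not computed, so no preference can be read from these counts.

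PABPC1P4, a copy of the mRNA for the cytoplasmic poly(A)-binding protein, held 7 DMSO and 8 AVJ16 peaks. The most enriched DMSO peak (6.02) was 0.20 lower with AVJ16, and that pair with its neighbours stayed between 5.82 and 6.02. The most enriched AVJ16 peak (6.70) lay in another stretch of the same pseudogene, where shared DMSO peaks of 5.92 and 5.97 stood against 6.53 and 6.33. Among the peaks of at least 20 nt with a match, over both lists, PABPC1 was the parent of 14, in 4 pseudogenes. Of these 14 peaks, 13 had a peak at the matching stretch of PABPC1. Another PABPC1 pseudogene, ENSG00000250568 inside PDS5A, reached 5.97 and 5.80, where PABPC1 itself stood at 5.36 and 5.03. PABPC1P1 was lower with AVJ16, at 5.09 and 4.16.

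RPL39P3, a copy of the mRNA of a large ribosomal subunit protein, carried a run of adjoining peaks. Its peak shown above was at 5.84 with DMSO and 6.13 with AVJ16, and the other 2 shared peaks at 5.24 and 5.57, and 4.01 and 4.35. An adjoining peak of 5.02 was in the AVJ16 list alone, and a second AVJ16 peak over the DMSO peak of 4.01 stood at 4.68. The 3 shared peaks were higher with AVJ16 by 0.29 to 0.35, within the limit of 0.5, and the RPL39 mRNA had no peak at the stretches that matched it. RPL29P4, in an intron of SLC35F1, held 4 and 5 peaks of 3.64 to 4.48 with DMSO and 3.83 to 4.58 with AVJ16, each within 0.3 of its partner.

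VDAC2P5, a copy of the mRNA for a mitochondrial outer membrane channel, showed the largest rise among the pseudogenes. It held 4 peaks in each list, all 8 identical to VDAC2 and all 8 across a junction, and VDAC2 had none at these stretches. Its first DMSO peak (3.24) covered 2 junctions and overlapped 2 AVJ16 peaks, of 3.69 and 5.13, and the larger overlap was with that of 5.13, shown above, a difference of 1.88. The remaining shared peaks went from 3.02 to 3.81, from 3.44 to 3.45 and from 3.49 to 3.45. Only the first 2 of these 4 differences passed the limit.

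UBE2D3P1, a copy of the mRNA of a ubiquitin-conjugating enzyme, went from 3.64 to 5.14, while UBE2D3 itself stood at 3.67 and 3.12 at the matching stretch. PCBP2P2, from an mRNA for a poly(C)-binding protein, went from 4.05 to 5.82 and from 4.12 to 4.73. RPS11P5 was higher by 0.88 and 1.06 at 2 peaks next to each other and was at 3.47 and 3.37 at the other. EIF3LP1, from an initiation factor 3 subunit, went from 3.69 to 4.79 at 1 shared peak and from 3.06 to 3.03 at another. RTRAFP1 (3.76 and 5.02), ATP5MC2P4 (3.03 and 4.21) and RPL41P2 (4.60 and 5.66) were named after their values were seen. The 24 higher peaks came from 20 pseudogenes and the 10 lower ones from 9, and EIF3EP1 was in both counts.

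EIF3EP1, a copy of another initiation factor 3 subunit mRNA, held 7 DMSO peaks of 3.01 to 4.01 and 6 AVJ16 peaks of 3.05 to 4.18. Its shared peaks went both ways, from 4.01 to 3.29 and from 3.01 to 4.18. EIF3FP3 held 2 and 4 peaks, and its most enriched went from 4.65 to 3.76. CTDNEP1P1 was lower by 0.94 at 1 of 2 peaks. SCDP1, a copy of the stearoyl-CoA desaturase mRNA, held 4 DMSO peaks of 3.05 to 3.72 and 2 AVJ16 peaks of 3.23 and 3.30, and all 6 crossed a junction. SCD held 42 and 57 peaks of its own, none of them at these stretches. FTLP3, from the ferritin light chain mRNA, held 4 AVJ16 peaks of 3.42 to 3.68 and none with DMSO.

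Of the shared pseudogene peaks with a match, 73 crossed a junction and had a median difference of 0.00 (8 lower, 16 higher). The 16 without a junction had a median of 0.30 (1 lower, 6 higher). In the genome, 22 DMSO (15.9%) and 35 AVJ16 (21.9%) pseudogene peaks of at least 20 nt had an identical copy at another site. For these the bases of the peak alone do not separate the sites, and the reads themselves were not examined.

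The lncRNA members were concentrated in a few genes. SNHG16, a snoRNA host gene on chromosome 17, held 15 DMSO and 18 AVJ16 peaks within a stretch of 1820 nt and 1826 nt. They ranged from 3.06 to 4.95 with DMSO (median 4.36) and from 3.04 to 4.75 with AVJ16 (median 4.20), and none of the shared ones differed beyond 0.5. FGD5-AS1, on chromosome 3, held 11 and 13 peaks of up to 4.61 and 4.45, with 1 shared peak lower, by 0.66. DANCR, on chromosome 4, a lncRNA known for keeping progenitor cells undifferentiated, held 6 and 7 peaks packed into 495 nt and 483 nt. Its first DMSO peak, the most enriched at 4.66, had an AVJ16 partner of 3.67, the next ones were at 3.83 and 3.90, 4.52 and 4.17, 4.20 and 4.24, and 4.25 and 4.24, and the last at 3.58 and 3.55. Only the first of these exceeded the limit.

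Further lncRNAs had several peaks. LINC00294 held 8 and 5 peaks of 3.02 to 3.75. OIP5-AS1, known for holding the RNA-binding protein HuR, held 5 in each list, up to 3.84 and 4.13, and ENSG00000291202 also 5 in each. NORAD, which binds Pumilio proteins, held 6 DMSO peaks of 3.01 to 4.38 and 3 AVJ16 peaks of 3.50 to 4.19, and its 3 shared DMSO peaks went from 4.04 to 4.19, from 4.38 to 4.02 and from 3.68 to 4.02, the last 2 facing 1 AVJ16 peak. SNHG29 held 3 and 6 peaks below 3.7. LINC02381 held 5 and 6 peaks, and the 4 shared ones went from 3.85 to 4.31, 3.60 to 3.97, 3.82 to 4.18 and 3.64 to 3.43. Its most enriched peak, 4.88, was in the AVJ16 list alone. The largest fall of all members was at C2orf74-DT, from 4.29 to 3.08, and ENSG00000250519 went from 4.31 to 3.31.

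**Figure D4:**
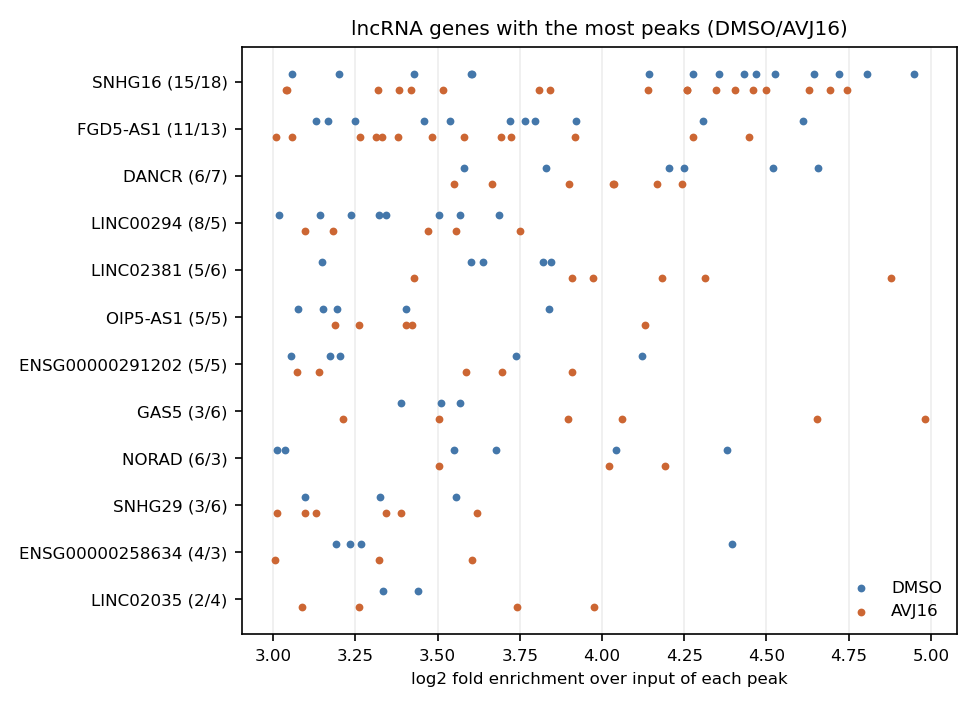
Log2 fold enrichment over input of each peak in the 12 lncRNA genes with the most peaks, with the number of DMSO and AVJ16 peaks in brackets. SNHG16 and FGD5-AS1 hold the most peaks, and the DMSO and AVJ16 points of SNHG16 cover nearly the same range, up to 4.95 and 4.75.

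Many lncRNA peaks lay outside the gene's canonical transcript, the 1 that the annotation marks as representative. An exon of it was touched by 65 of 130 DMSO peaks (50.0%, 41.5 to 58.5) and 49 of 121 AVJ16 peaks (40.5%, 32.2 to 49.4). None of the 33 SNHG16, 24 FGD5-AS1 and 13 DANCR peaks touched such an exon, and each lay in exons of other transcripts of the same gene. Other positions were rarer. Within an intron of a coding gene on the same strand lay 24 (18.5%) and 20 (16.5%), opposite a coding exon 22 (16.9%) and 22 (18.2%), and within 5000 nt downstream of a coding gene on the same strand 13 (10.0%, 5.94 to 16.4) and 9 (7.44%, 3.96 to 13.5).

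GAS5, a snoRNA host gene, held 3 DMSO and 6 AVJ16 peaks, and all 9 lay on snoRNAs that RefSeq places within GAS5 and that the GENCODE release does not list. SNORD77 was at 3.39 with DMSO and carried 2 AVJ16 peaks, of 4.98 and 4.65. SNORD75 was covered over all of its 60 bases with AVJ16, and from base 12 on with DMSO. It stood at 3.57 (DMSO) and 4.06 (AVJ16) in its 3′ part and 3.51 and 3.90 in its 5′ part. SNORD78 (3.50) and SNORD74 (3.21) had a short peak with AVJ16 alone. GAS5 was therefore counted as a lncRNA by the rule, and 8 of its 9 peaks lay only in transcripts with a retained intron. The 1.59 rise at SNORD77 was the largest of the lncRNA class.

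The annotated snoRNAs with a member numbered 23, all of the SNORD (C/D box) family, 15 with DMSO and 20 with AVJ16. Both lists held 12 of them. SNORD14E, SNORD36C and SNORD42B had members with DMSO alone, though the SNORD36C peak overlapped an AVJ16 peak that was no member, and SNORD9, SNORD28, SNORD37, SNORD4A, SNORD66, SNORD7, SNORD11B and SNORD91B with AVJ16 alone. Peaks lay wholly inside the snoRNA for 25 of 27 DMSO and 41 of 43 AVJ16 peaks, and 18 and 25 lay in introns of coding genes. A CUGA was present in all 23 and UGAUGA in 13 (56.5%), against 35.6% of the 942 annotated snoRNAs, which include families without these boxes. The last CUGA was wholly covered by peaks in 14, and UGAUGA in 2.

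SNORD1A, one of the SNHG16 snoRNAs, stood at 4.71 and 4.68 with DMSO and 4.77 and 4.86 with AVJ16. SNORD101, in an intron of RPS12, had shared peaks of 4.26 and 4.74, 4.20 and 4.68, and 3.92 and 4.20, all at the upper limit of −log10 p, and a further AVJ16 peak of 4.42 at its 5′ end. SNORD90, in RC3H2, went from 4.64 to 4.22 and from 4.32 to 4.36. SNORD72, in RPL37, was at 4.20 and 3.89. Over the 23 shared peaks of annotated snoRNAs the median difference was 0.14, 0 were lower and 2 higher, SNORD51 by 0.60 and SNORD36C by 0.56. The snoRNAs within GAS5, counted as lncRNA, are not among these. Their shared DMSO peaks were higher with AVJ16 by 1.59 (SNORD77) and by 0.49 and 0.39 (SNORD75). The SNORD36C peak was 4 nt long with 3 bases in the snoRNA, and its partner was no member. The snoRNA peaks of the AVJ16 list had a partner in 24 of 43 cases (55.8%, 41.1 to 69.6), and those of the DMSO list in 23 of 27 (85.2%, 67.5 to 94.1).

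**Figure D5:**
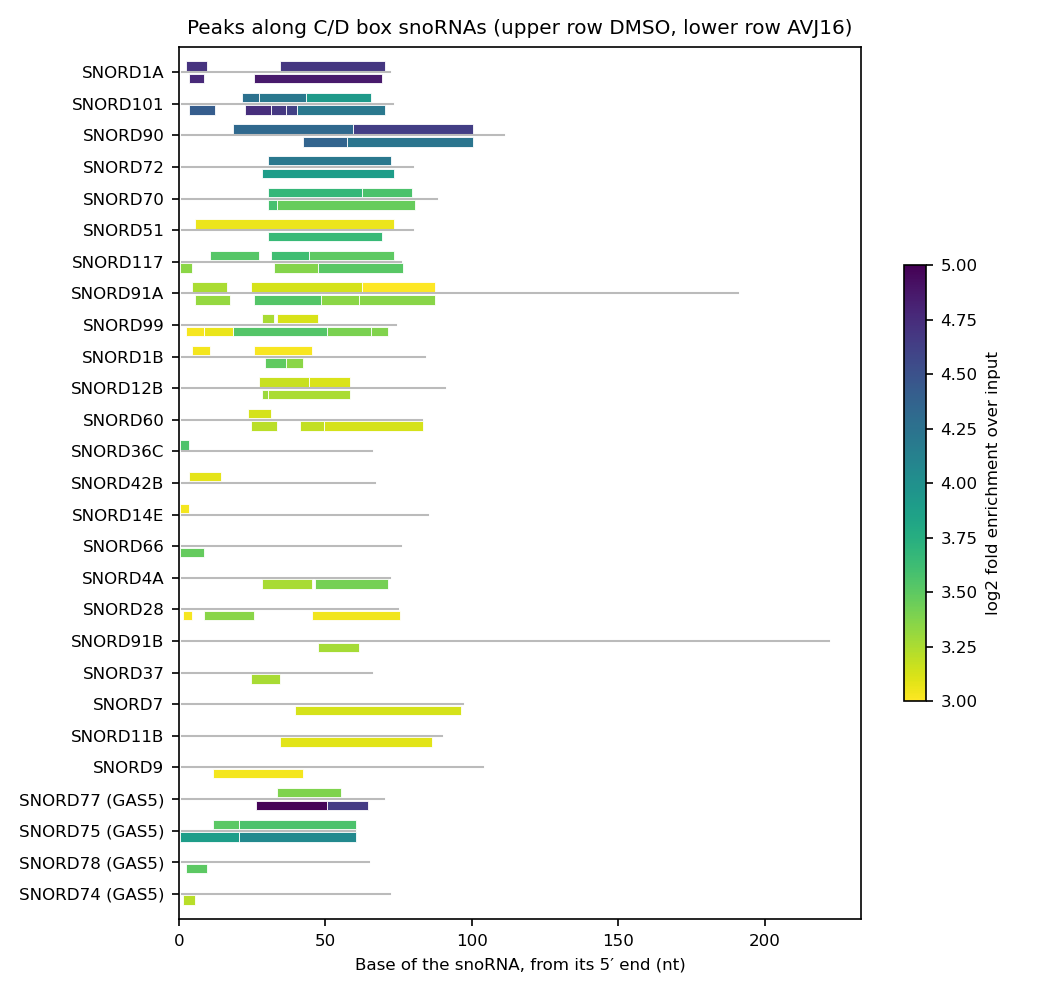
Peaks along the 23 annotated C/D box snoRNAs with a member and the 4 RefSeq snoRNAs within GAS5, by base from the 5′ end. Grey lines give the length of each snoRNA, the upper row of bars the DMSO peaks and the lower row the AVJ16 peaks, coloured by log2 fold enrichment. SNORD1A, SNORD101 and SNORD90 are the darkest of the snoRNAs outside GAS5, with peaks of at least 4.2 in both lists.

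The other small RNAs were few. MIR27A had 2 adjacent AVJ16 peaks, of 13 nt at 4.89 and 8 nt at 3.63, which together covered all 21 nt of hsa-miR-27a-3p and none of the 5p arm. MIR222 had 1 AVJ16 peak (3.99) over 13 of the 21 nt of hsa-miR-222-3p. The DMSO list had no miRNA peak. The 6 Y RNA loci, among them RNY3P2, were all closest to RNY3, with 90.8% to 98.0% identity, and neighbouring peaks of a locus often shared the same value. RNY3P2, in FNDC3A, went from 3.81 to 4.82. The copy on chromosome 4 went from 4.26 to 3.41 and from 4.05 to 3.41, and that in CRYBG1 from 4.26 to 3.94 and from 4.06 to 3.94. The copy in KLHL13 was in the DMSO list alone (4.82), and those on chromosomes 2 (4.25) and 12 (4.17) in the AVJ16 list alone. Of all small RNA peaks of at least 20 nt, 3 of 18 (DMSO) and 6 of 25 (AVJ16) had an identical copy elsewhere in the genome. Whether reads were assigned to the right Y RNA copy was not tested. The mitochondrial tRNA gene MT-TF had a shared peak at 3.59 and 3.91, and MT-TV had 2 AVJ16 peaks, of 3.20 and 3.12.

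Among the TEC genes, ENSG00000279453 on chromosome 6 held 5 DMSO and 8 AVJ16 peaks and the largest rise of all members, from 3.79 to 5.84. Other shared peaks of that gene went from 4.43 to 3.47, from 4.02 to 4.00 and from 4.40 to 4.81.

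A list of 44 noncoding RNAs, made of snoRNA host genes, lncRNAs described with IGF2BP proteins or abundant in cultured cells, and RNA polymerase III transcripts, was looked up whatever its values. RNY5 was not in the annotation under that name. Members were found in 7 of the 44 with DMSO, 7 with AVJ16 and 8 in either, namely GAS5, SNHG16, SNHG29, NORAD, DANCR and OIP5-AS1 in both, NEAT1 with DMSO alone (1 peak, 3.26) and SNHG1 with AVJ16 alone (1 peak). ZFAS1 had 2 peaks in each list, and these were counted under SNORD12B, which it hosts. TUG1 is protein-coding in this GENCODE release, and its 17 and 7 exon peaks were not members. MALAT1, H19, RN7SK, RN7SL1, RNY1 and RNY3 were among the 36 with none. For the repeated RNA polymerase III families this says little, since the authors discarded reads that map to repetitive elements.

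Short motifs were counted in windows of 100 nt centred on the peaks, on the strand of the RNA. The motifs searched were CAUU, the related CAUC, then CAUA, and finally GGAC, which can share its last base with any of the others. CAUU was less common around members, with 36.6% (31.6 to 42.0) of DMSO and 33.8% (29.1 to 38.8) of AVJ16 windows against 49.3% of all windows in both lists. It was rarest in small RNA windows, 11.1% (4.41 to 25.3) and 10.5% (4.91 to 21.1). Many of these windows reach beyond the short gene, and peaks of the same gene share much of a window. CAUU stood at 37.0% and 37.3% around pseudogene peaks and 41.5% and 37.2% around lncRNA peaks. CAUC (36.0% and 39.0%, all peaks 36.4% and 36.9%), CAUA (26.5% and 28.8%, all peaks 30.0% and 29.6%) and GGAC (24.0% and 22.0%, all peaks 21.8% and 21.9%) differed from all peaks by less than the counting error. Members also held less U, 27.9% and 27.8% of bases against 30.8% and 30.7%, and pseudogene windows the least, 25.4% and 25.1%. The part of base composition in the CAUU share was not tested.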

How the data were processed

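IGF2BP1 eCLIP peaks of H1299 cells treated with DMSO or AVJ16 were taken from 1 deposited list per treatment, grouped as labelled. The authors trimmed reads with cutadapt, discarded reads from repeats, mapped the rest with STAR, took out PCR duplicates, called peaks with CLIPper and normalized them to SMInput. The deposited −log10 p and log2 fold enrichment values come from the authors, who compared IP with SMInput reads. Both replicates were combined and each list was normalized separately. Depth is unknown from the lists.

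The submitters' processing notes name hg38, and the methods name Gencode release 19. Exons here are from GENCODE release 44. A peak touching several classes was counted once, with pseudogenes taken first, then small RNAs, lncRNAs and TEC genes. For differences, the AVJ16 peak with the longest overlap, at least 1 nt, was taken as the partner of a DMSO peak. Parents were searched with blastn 2.17.0 (word size 11), and overlaps used bedtools 2.31.1, Python 3.11.15, pandas 2.3.3 and pysam 0.24.0. The rule, pairing, parent search and intervals were tested on simulated data. Shares have 95% Wilson intervals.

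Genes named are, per class, those with the most peaks or the most enriched peak, the 5 largest rises and falls, the most enriched in 1 list only, all small RNAs and a list of 44 genes, and only some of these are printed. Members and lists were chosen with earlier results of these data known. Genes with an ENSG identifier matched no RefSeq symbol. RNA-seq and proteomics were not analysed here.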

Additional observations from a re-analysis of the deposited data

How the results depend on the processing

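No paired analysis was possible because each list holds both replicates of a treatment combined. For the same reason no replicate could be left out and no error between replicates given. Of 69 alternative settings of 27 results, 36 stayed within the counting error or 1.5 times the count and 33 moved, and the cause was not tested. No median difference changed sign. At an enrichment of 4 or more (log2), members numbered 84 (DMSO) and 96 (AVJ16), lncRNAs were 34.5% of the DMSO members and partners were found for 89.3% and 86.5%. With genes counted in place of peaks, lncRNAs were 30.6% and 21.4% and pseudogenes 55.2% and 62.0%, and with lncRNA taken first in class assignment lncRNAs were 39.3% with AVJ16 against 46.2% for pseudogenes, and with DMSO lncRNAs held 143 and pseudogenes 138 of 325 peaks, which turned the order of these classes. Partners were found for 51.7% and 45.6% with an overlap of 50% of both peaks, for 75.8% and 69.0% at −log10 p of at least 5, and for 56.1% with AVJ16 when touching peaks were joined. Centred on all shared peaks the median difference was 0.10, and with a limit of 1, 0.495% were lower and 6.93% higher. Matches to coding transcripts fell to 45.7% and 45.6% at full identity and to 91.2% with AVJ16 at 95%. Downstream lncRNA peaks were 2.31% and 1.65% within 1000 nt and 18.5% and 18.2% within 10000 nt. In windows of 60 nt, CAUU was in 26.2% and 22.8%, CAUC in 22.5% and 27.5%, CAUA in 16.6% and 18.4% and GGAC in 17.5% and 16.5%. For the pseudogene differences, 4 alternatives chosen after seeing the data (stricter overlap, each peak in 1 pair, stricter p, centring) gave 24.7% to 27.6% higher and 10.2% to 11.8% lower.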
